A study of Mus musculus with 4 samples.

Results

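The genes described here charge transfer RNAs with amino acids, make serine, glycine, proline, glutamine, asparagine and aspartate, or carry amino acids across the cell membrane, and they were measured in mesenchymal stromal cells (MSCs) of mouse bone marrow. They were taken from the deposited count table by a list of 54 gene symbols, chosen by function and not by level. The list holds current and older spellings of the same genes, and 38 of its spellings match a row of the table while 16 have none, so that 38 of the 56980 listed genes were described. They comprise 20 aminoacyl-tRNA synthetase genes, 5 genes of serine and glycine synthesis, 5 genes of proline, glutamine, asparagine and aspartate synthesis and 8 genes of amino acid uptake. Symbols are given as the table spells them, for example Eprs and Gars where the current symbols carry a final 1.

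The study asked how myeloid cells of embryonic origin shape the bone marrow niche, and sequenced MSCs to look for receptor and ligand pairs with macrophages. All libraries form one group of 4 male wild-type C57BL/6J mice, from a colony inbred in-house, at 14 weeks of age. From the bone marrow of each mouse, 100 cells were taken that carried CD51 and PDGFRa and lacked CD45, Ter119, CD31 and Sca1, and 1 library was made per mouse from polyadenylated RNA by oligo-dT priming, template switching, PCR and tagmentation. There was no second group, so nothing below is a comparison between conditions, and each value describes adult MSCs as this gate defines them. Levels are given as TPM, a count divided by the length of the gene's merged exons and scaled to 1000000 per library, with the mean and SD over the 4 mice.

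An aminoacyl-tRNA synthetase attaches one amino acid to its matching tRNAs, and the ribosome draws on these charged tRNAs at each codon. Fibrillar collagen, the main protein of bone matrix, repeats a glycine at every position facing the inside of its helix and is rich in proline, so a cell that secretes it draws heavily on both amino acids. Cells make glycine from serine and proline from glutamate, and take up others through membrane carriers. When an amino acid runs short, the transcription factor ATF4 raises many synthetase, synthesis and carrier genes through a composite element that it binds with C/EBP proteins.

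The core of that element, TGATGNAA on either strand, was looked for in the 250 bases before the start of each gene in the RefSeq promoter table of GRCm38.p6. Of the 38 genes, 28 matched an entry of the table, and 7 of these (25%) held the core, where 1056 of all 27025 promoters (3.91%) did. The 7 are shown because they mark which genes of the set carry this sequence, with the matched bases in capitals and each stretch written 5′ to 3′ on the strand of its gene.
Gars, chr6:55037947-55038000, plus strand: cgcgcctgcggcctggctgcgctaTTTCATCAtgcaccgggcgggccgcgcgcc
Aars, chr8:111033706-111033761, plus strand: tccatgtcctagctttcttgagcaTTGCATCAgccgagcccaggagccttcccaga
Tars, chr15:11399659-11399697, minus strand: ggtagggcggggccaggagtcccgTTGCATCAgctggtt
Asns, chr6:7693210-7693256, minus strand: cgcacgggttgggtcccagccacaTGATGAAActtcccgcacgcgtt
Pycr1, chr11:120643820-120643875, minus strand: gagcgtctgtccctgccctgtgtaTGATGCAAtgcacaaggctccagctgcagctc
Got1, chr19:43524676-43524731, minus strand: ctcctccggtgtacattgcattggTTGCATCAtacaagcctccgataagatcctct
Slc7a11, chr3:50443648-50443703, minus strand: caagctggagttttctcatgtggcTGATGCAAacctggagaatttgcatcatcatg

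In Asns, Pycr1 and Slc7a11 the core reads along the gene's own strand, and in Gars, Aars, Tars and Got1 it lies on the opposite strand, so that its reverse complement is in capitals. The first matched base lies 15 bases before the start in Tars, 23 in Asns, 30 in Gars, 66 in Slc7a11, 102 in Got1, 103 in Pycr1 and 112 in Aars. Slc7a11 holds a second match, on the opposite strand, 47 bases before its start. Such a match is a run of letters and no measurement of binding. The 7 genes span nearly the whole range of levels described below, from Gars, the synthetase with the most mRNA, to Slc7a11, which was all but absent.

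The libraries held between 22738604 and 43545349 counts, and the 38 genes took between 0.188% and 0.361% of them. Of the genes that define the sort, Pdgfra had between 4315 and 6779 counts and Itgav, which encodes CD51, between 1710 and 3427. Ptprc, which encodes CD45, had at most 50 counts. Ly6a encodes Sca1, which the sort excluded, and had 1, 120, 0 and 144 counts in mice 1 to 4. The stromal niche genes Cxcl12 and Lepr were present in each mouse, and the osteoblast list of 4 genes (Alpl, Bglap, Ibsp and Sp7) came to a total of 77792 to 168024 TPM, so the sorted cells carried osteoblast mRNA alongside that of niche stroma. Of the 4 macrophage markers, Adgre1, Csf1r and C1qa had no counts and Cd68 had a median of 0.44 TPM, and of the 3 endothelial markers Cdh5 and Kdr had no counts and Emcn at most 1. Erythroid markers (6 genes) ran between 35.0 TPM (mouse 2) and 4980.4 TPM (mouse 1). Neutrophil markers (5 genes, Ltf without counts) ran from 4.09 to 30.7 TPM and chondrocyte markers (4 genes) from 219 to 352 TPM. Most of the chondrocyte sum was Col11a2, also a collagen gene, with 345, 228, 214 and 218 TPM in mice 1 to 4. Acan and Matn3 had no counts in mice 2 and 3, and Col9a1 had a median of 1.01 TPM and was highest in mouse 3.

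Nearly the whole set was expressed. A median above 1 TPM over the mice, the cutoff of the study for MSCs, was reached by 36 of the 38 genes, where 22.9% of all 52125 genes with a length and 44.2% of the 21922 protein-coding genes reached it. All 20 synthetase genes, all 5 serine and glycine genes and all 5 proline, glutamine, asparagine and aspartate genes passed, and in the uptake group 6 of 8 did. The exceptions were Slc7a11, the cystine carrier subunit xCT, and Slc38a1, a sodium-coupled neutral amino acid carrier. Above 1 TPM in every single mouse were 30 of the 38 genes, beside 15.4% of all genes and 30.1% of protein-coding genes. The 8 that fell short in some mouse were Cars, Shmt1, Got1 and the carriers Slc1a4, Slc7a1, Slc7a5, Slc7a11 and Slc38a1.

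**Figure D1:**
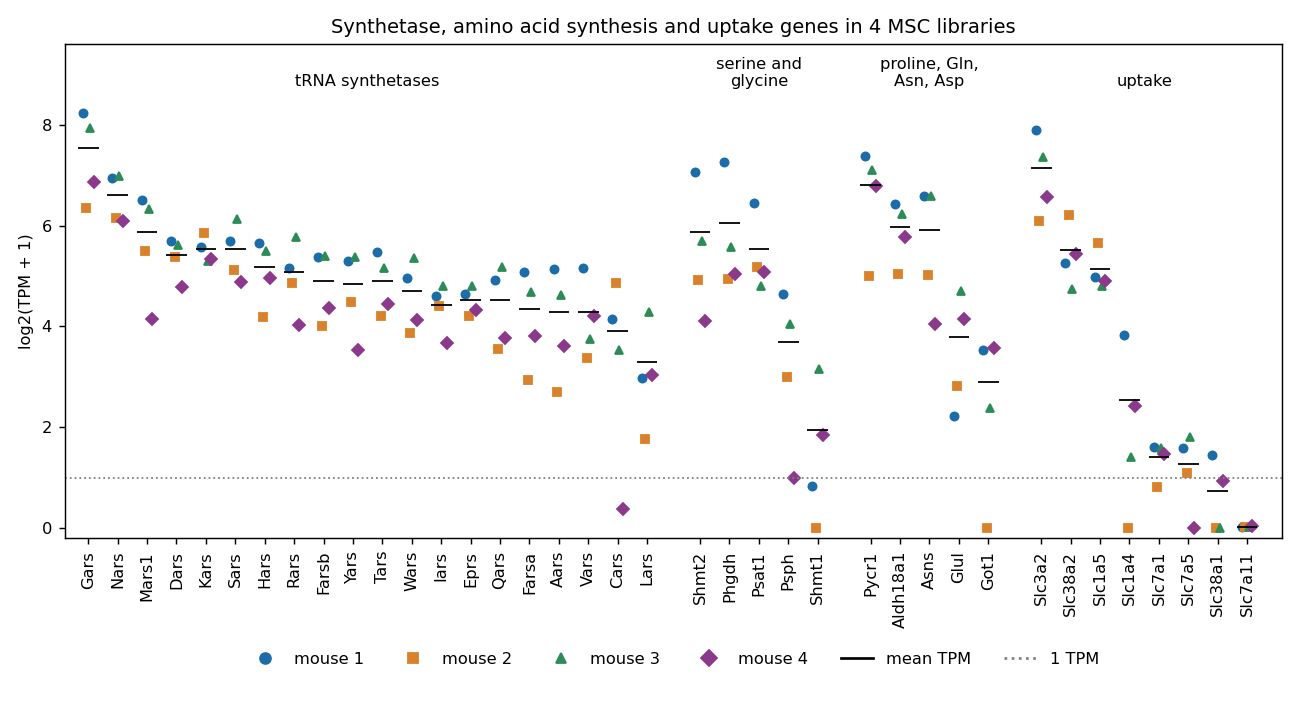
Level of each of the 38 genes in each mouse, as log2(TPM + 1), with 1 point per mouse, a bar at the mean TPM and a dotted line at 1 TPM. Synthetase genes lie close together except for Gars at the top and Lars at the bottom, while the uptake genes run from Slc3a2, at 141 TPM, to Slc7a11, at 0.024 TPM.

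Among the synthetases, the glycine enzyme stood highest. Gars, which charges glycine tRNA in both the cytosol and the mitochondria (chr6:55038007-55079500 of GRCm38), had 300.4, 81.0, 243.1 and 115.3 TPM in mice 1 to 4, which averages 185 ± 104 TPM (SD, n = 4). It ranked 1 of 20 in every mouse, whereas the median synthetase gene had 36.4, 18.8, 39.2 and 17.1 TPM. On the log2(TPM + 1) scale Gars exceeded the median synthetase gene by 2.59 ± 0.40, in 4 of 4 mice (exact two-sided sign-flip permutation test, p = 0.125, adjusted p = 0.25 over 6 comparisons), and 0.125 is the smallest p that 4 mice allow. When the merged exons were replaced by the length of the transcript with the longest coding sequence, Gars kept a difference of 2.12 ± 0.39 and ranked 3 in mouse 2, where Kars ranked 1.

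Asparagine, methionine, serine, lysine and aspartate enzymes followed. Nars, the asparagine enzyme, had 122, 69.7, 126 and 66.9 TPM and ranked 2 of 20 in each mouse with either length. Mars1, for methionine, had 90.5, 44.2, 79.0 and 16.8 TPM, the last of which put it at rank 11 in mouse 4. Below these 3, mean levels came close together relative to their spread, with Sars (serine) at 45.5 ± 18.2 TPM, Kars (lysine) at 45.3 ± 8.59 TPM, Dars (aspartate) at 41.5 ± 10.9 TPM and Hars (histidine) at 35.2 ± 14.4 TPM. Neighbours among these 4 did not differ beyond their SDs. The order of methionine and serine rests on the length, since with the coding transcript Sars had a mean of 84.5 TPM and ranked 3 by its median while Mars1 had 44.7 TPM and ranked 7.

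The synthetases varied in how evenly the mice expressed them. Kars and Eprs were the most even, with coefficients of variation (CV) between mice of 19.0% and 19.9%. Cars, for cysteine, was the least even, with 16.8, 28.3 and 10.6 TPM in mice 1 to 3 and 0.31 TPM, from 21 counts, in mouse 4. Lars, the leucine enzyme, had the lowest median of the group, with 6.90, 2.43, 18.6 and 7.21 TPM, and its lowest and highest mouse differed 7.66-fold. The remaining genes had mean levels from 18.4 ± 11.2 TPM in Vars (valine) to 33.0 ± 16.2 TPM in Rars (arginine), with Farsb, Tars, Yars, Wars, Qars, Iars, Farsa and Aars between them. Farsa and Farsb, the paired subunits of the phenylalanine enzyme, had 19.3 ± 11.8 and 29.1 ± 13.6 TPM. Farsb was the higher subunit in each mouse with merged exons, but with the coding transcript as length Farsa was higher in mice 1, 3 and 4, at 54.3, 41.2 and 22.1 TPM against 34.6, 35.4 and 17.4 TPM, so their order rests on the length.

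Eprs, which encodes the only enzyme of the cytosol that charges proline tRNA and carries the glutamate enzyme in the same protein (chr1:185363044-185428360), did not stand out. It had 23.9, 17.4, 26.9 and 19.2 TPM, a mean of 21.9 ± 4.35 TPM, and ranked 14 of 20 by its median. Against the median synthetase gene it differed by -0.26 ± 0.35 on the log2(TPM + 1) scale and was higher in 1 of 4 mice (exact two-sided sign-flip permutation test, p = 0.375, adjusted p = 0.375). The direction rests on the gene length. The merged exons of Eprs span 18102 bases, where its transcript with the longest coding sequence has 4906, and with that length Eprs had 54.4 ± 10.2 TPM, ranked 6 of 20 and lay above the median synthetase gene by 0.72 ± 0.40 in 4 of 4 mice (exact permutation p = 0.125, adjusted p = 0.125). Its place among the synthetases is therefore given as uncertain.

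Enzymes of the mitochondrial matrix, which charge tRNAs of the organelle, were lower. Of 17 genes of this list, chosen with earlier results of these libraries known, 13 had a median above 1 TPM, and the 17 summed to 86.7 ± 33.0 TPM, where the 20 synthetase genes above summed to 794 ± 318 TPM. Rars2 and Hars2 were highest, with 17.8 ± 4.81 and 11.8 ± 8.64 TPM. Pars2, the mitochondrial proline enzyme, had 4.76 TPM in mouse 2 and no counts in the other mice. The 3 scaffold genes of the multisynthetase complex, which also holds the Eprs protein, all passed the cutoff, led by Aimp2 with 38.5 ± 12.4 TPM and Aimp1 with 20.4 ± 6.20 TPM.

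Collagen mRNA shaped the amino acid content that the synthetases serve. Col1a1 and Col1a2, which encode the chains of type I collagen, had 26626 ± 3682 and 11265 ± 1957 TPM, and the 44 collagen genes of the table summed to 45826, 38217, 32735 and 42982 TPM. Of these 44, 25 had a median above 1 TPM, and Col10a1, Col17a1, Col20a1, Col4a6, Col6a6 and Col9a2 had under 3 counts in each library. Each gene's longest coding sequence was translated and its residues weighted by its TPM, which describes the mRNA pool and not the rate of translation. Type I collagen is unusual in composition, since the Col1a1 product holds 389 glycines and 276 prolines among 1453 residues and that of Col1a2 381 and 223 among 1372. The Eprs and Gars products, of 1512 and 729 residues, hold 5.82% and 5.62% glycine.

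In this weighting glycine was the most abundant amino acid. It made up 11.0%, 10.4%, 9.63% and 11.1% of all residues in mice 1 to 4, a mean of 10.5% ± 0.67, and 6.36% ± 0.10 when collagen genes were left out. Proline made up 8.64%, 8.25%, 7.72% and 8.76%, a mean of 8.34% ± 0.47, and 5.87% ± 0.08 without collagen genes. With each protein counted once, whatever its mRNA, glycine had 6.38% and proline 6.09%, close to the shares without collagen genes. Collagen genes supplied 51.5% ± 5.50 of the glycine and 43.6% ± 4.89 of the proline, from 20.2% ± 3.32 of all residues. Col1a1 and Col1a2 alone supplied 51.8%, 48.2%, 41.6% and 53.8% of the glycine.

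**Figure D2:**
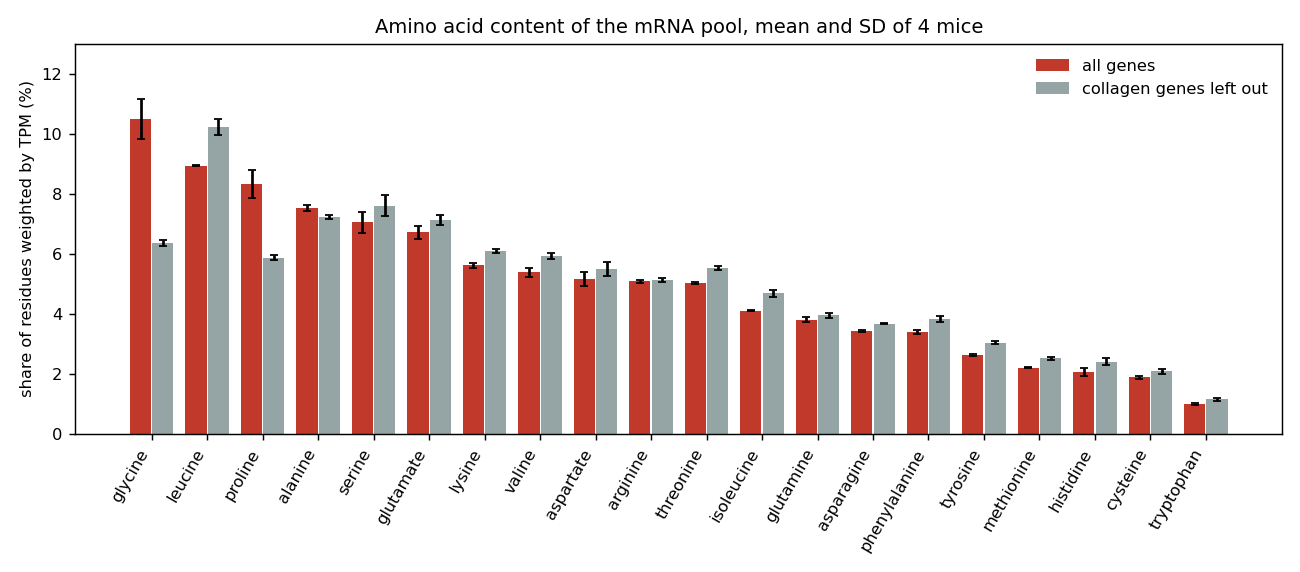
Share of each amino acid among the residues encoded by the mRNA pool, weighted by TPM, with all genes (red) and with the 44 collagen genes left out (grey), where bars are means and error bars the SD of 4 mice. Glycine falls from 10.5% to 6.36% and proline from 8.34% to 5.87%, while leucine rises from 8.95% to 10.2%.

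Set against these shares, glycine and proline differed in how much synthetase mRNA stood beside them. Glycine ranked 1 of 20 in residues and in synthetase mRNA. It had 16.8 TPM of Gars for each percent of residues, rank 5 of 20 amino acids. With the length of the coding transcript it had 14.9 TPM and rank 6. Proline ranked 3 of 20 in residues and had 2.55 TPM of Eprs for each percent, rank 18 of 20 amino acids, or 6.32 TPM and rank 15 with the length of the coding transcript. The full Eprs level was set against proline here, though the same protein also charges glutamate, at 6.68% of residues. Leucine, second in residues, was last of 20 by either length, with 0.79 and 0.72 TPM of Lars for each percent. Asparagine was first by either length, with 28.0 and 29.8 TPM of Nars.

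Over the 20 amino acids, the relation of synthetase mRNA to the residue share was weak and changed sign with the gene length. The Spearman rank correlation was -0.08 for the medians over mice and -0.06, -0.04, -0.14 and 0.22 within mice 1 to 4. It is a description over 20 amino acids that share the same libraries and weights, with Eprs standing for both glutamate and proline and the mean of Farsa and Farsb for phenylalanine. The correlation was 0.20 with synthetase levels per coding transcript and 0.40 with counts that were scaled by depth and not by length.

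**Figure D3:**
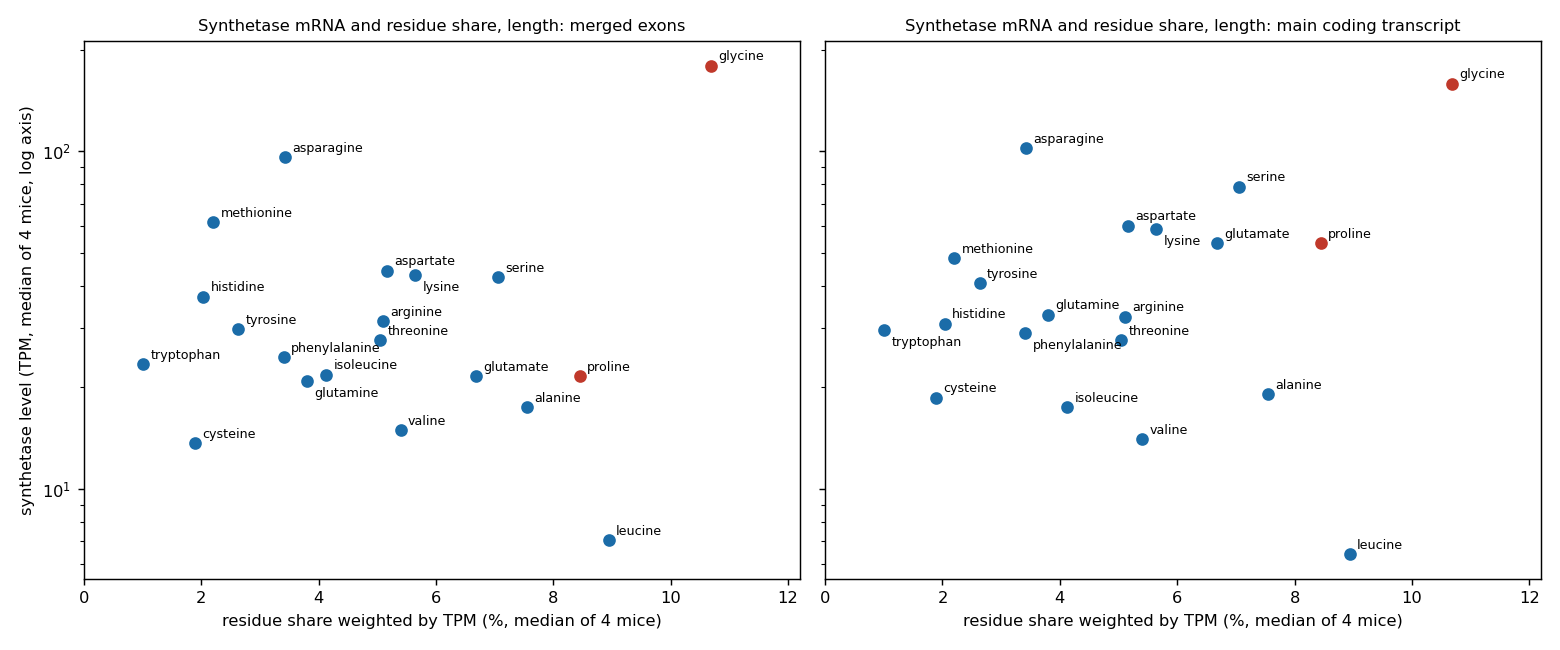
Synthetase level (median TPM of 4 mice, log axis) against the share of its amino acid among the residues encoded by the mRNA pool (median of 4 mice, in percent), for 20 amino acids, with TPM from merged exons (left) and from the coding transcript (right). Glycine lies at the upper right and leucine at the lower right in both panels, while the point for proline, which shares Eprs with glutamate, moves from 21.6 TPM on the left to 53.4 TPM on the right.

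In serine and glycine synthesis, Phgdh, Psat1 and Psph turn a glycolytic intermediate into serine, and the SHMT enzymes turn serine into glycine. Phgdh, the first enzyme (chr3:98313170-98339990), had 153, 29.5, 46.8 and 32.1 TPM, and Psat1, the second, 86.3, 35.4, 26.8 and 32.9 TPM. In both genes mouse 1 lay far above the other 3 mice. Psph, the last step to serine, was lower, with 23.9, 6.94, 15.5 and 1.01 TPM, the last from 45 counts. Phgdh is uncertain, since 89.5% of its transcript has near-identical copies in 11 other annotated genes, most of the length in the pseudogene Gm9252, and read pairs that map to more than 1 place were not counted.

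The mitochondrial branch to glycine carried more mRNA than the cytosolic one. Shmt2, the mitochondrial enzyme, had 132, 29.5, 50.7 and 16.3 TPM, while Shmt1, the cytosolic enzyme, had 0.78, 0, 7.96 and 2.59 TPM. The 0 counts of Shmt1 in mouse 2 allow a level of up to 0.0694 TPM by counting error alone. Shmt2 exceeded Shmt1 by 3.99 ± 1.92 on the log2(TPM + 1) scale, in 4 of 4 mice (exact two-sided sign-flip permutation test, p = 0.125, adjusted p = 0.25). Of 7 further genes of one-carbon metabolism and glycine cleavage, 5 had a median above 1 TPM, led by Mthfd2, a mitochondrial enzyme downstream of SHMT2, with 114, 28.7, 106 and 24.7 TPM and Gcsh, the carrier protein of the glycine cleavage system, with 51.2 ± 22.5 TPM. Gldc and Amt, which belong to the same cleavage system, fell short, with medians of 0.25 and 0.04 TPM, so the level of Gcsh does not stand for the whole system.

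In proline synthesis, Aldh18a1 encodes the enzyme that reduces glutamate to a semialdehyde, which closes into a ring by itself, and Pycr1 a mitochondrial reductase that turns this ring into proline. Pycr1 (chr11:120635712-120643769) had 166, 31.2, 136 and 109 TPM, the highest mean of the synthesis genes, at 111 ± 57.9 TPM. Aldh18a1 had 85.6, 32.1, 73.7 and 54.1 TPM, close to Pycr1 in mouse 2 and below it in the other 3. The difference of Aldh18a1 minus Pycr1 was -0.69 ± 0.49 on the log2(TPM + 1) scale, with Aldh18a1 higher in 1 of 4 mice (exact two-sided sign-flip permutation test, p = 0.25, adjusted p = 0.3).

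Proline can also be made from ornithine, and the enzyme of that route had more mRNA than either. Oat, ornithine aminotransferase, had 472, 508, 463 and 310.4 TPM, a mean of 438 ± 87.4 TPM, and was highest in mouse 2, where Pycr1 was lowest. Of the 8 genes of proline turnover measured, 3 had a median above 1 TPM, and Prodh2, Arg1 and Arg2 had under 3 counts in each library. Prodh, which starts proline breakdown, had 39, 0, 3 and 0 counts.

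The other synthesis genes differed in which mice were high. Asns, asparagine synthetase, had 94.96 and 94.86 TPM in mice 1 and 3 against 31.4 and 15.5 TPM in mice 2 and 4. Glul, glutamine synthetase, ran the other way in mouse 1, with 3.64, 6.06, 25.1 and 16.7 TPM. Got1, the cytosolic aspartate aminotransferase, had 10.6, 0, 4.24 and 10.9 TPM, with a limit of 0.106 TPM for its 0 counts in mouse 2. Glul is less certain than these, as 2 other genes hold near-identical copies of 44.3% of its transcript. Of 5 further genes of glutamine and glutamate metabolism, 4 passed the cutoff, led by Glud1 with 39.4 ± 10.8 TPM and Got2 with 16.3 ± 11.0 TPM, the latter without counts in mouse 4.

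Uptake genes showed the widest range. Slc3a2 encodes the heavy chain, CD98hc, that takes several carrier light chains to the membrane (chr19:8706882-8723369), and it had 237, 67.5, 164 and 94.2 TPM. Slc7a5, the light chain LAT1 for large neutral amino acids, had 1.99, 1.14, 2.50 and 0 TPM, where the 0 counts in mouse 4 allow up to 0.0783 TPM. The heavy chain exceeded this light chain by 5.86 ± 0.72 on the log2(TPM + 1) scale, in 4 of 4 mice (exact two-sided sign-flip permutation test, p = 0.125, adjusted p = 0.25). The xCT light chain, Slc7a11, had between 3 and 5 counts in each mouse, at the limit of 3 counts taken as the smallest detectable value. Other partners of CD98hc were looked up after these values were seen, and Slc7a6 had 35.1, 1.81, 26.7 and 14.7 TPM, Slc7a7 15.7, 0.05, 15.9 and 1.87 TPM and Slc7a8 5.75, 0, 2.16 and 0.04 TPM. Slc7a6 was thus the highest of the 5 light chains in each mouse, also in mouse 2, where it stood at 1.81 TPM beside 1.14 TPM of Slc7a5.

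The carriers Slc38a2 and Slc1a5 were expressed in each mouse. Slc38a2, the sodium-coupled carrier SNAT2 that takes up alanine, glutamine and proline, had 37.2, 73.4, 25.6 and 42.6 TPM. Slc1a5, the glutamine exchanger ASCT2, had 30.7, 49.7, 27.1 and 28.9 TPM. Slc38a2 minus Slc1a5 was 0.32 ± 0.30 on the log2(TPM + 1) scale, higher in 3 of 4 mice (exact two-sided sign-flip permutation test, p = 0.25, adjusted p = 0.3). The other carrier genes were low or without counts in some mice, with Slc1a4 (ASCT1) at 13.3, 0, 1.65 and 4.36 TPM, Slc38a1 at 1.75, 0.01, 0.00 and 0.92 TPM and Slc7a1, the carrier of arginine and lysine, at 2.04, 0.76, 2.03 and 1.76 TPM.

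A carrier outside the set had more mRNA than any of these. Slc36a2, which moves proline and glycine together with protons, had 664, 318, 526 and 414 TPM, a mean of 480.4 ± 149 TPM. It was the leading gene of a list of 11 carrier genes put together for proline and glycine, of which 5 had a median above 1 TPM. Next came Slc38a10 with 38.8 ± 20.6 TPM, though whether it carries proline or glycine was not examined. Slc6a20b and Slc7a10 had under 3 counts in each library. Slc6a9, the glycine carrier GLYT1, had a median of 3.48 TPM.

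Most amino acid response genes passed the cutoff, but fewer did so in every mouse. Of 10 measured genes of that list, 8 had a median above 1 TPM, beside 44.2% of protein-coding genes. Above 1 TPM in every mouse were 4 of them, beside 30.1% of protein-coding genes. Eif2ak4, with a median of 0.81 TPM, and Trib3 fell short of the cutoff. Nupr1, a stress-induced nuclear protein, had 2208 ± 542 TPM and Atf4, the factor named above, 214 ± 26.6 TPM, with 239, 205, 232 and 181 TPM in mice 1 to 4. Trib3, an ATF4 target that dampens the response, had 26.9 TPM in mouse 1 and no counts in the other mice. Chac1, another target, had 36.9, 0, 17.0 and 14.0 TPM.

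Most synthetase genes were higher in mice 1 and 3 than in mice 2 and 4. Of the 27 members with a mean of 10 to 100 TPM, 13 were highest in mouse 1 and 10 in mouse 3, where 28.2% and 33.7% of protein-coding genes of that range were. Of the same 27, 11 were lowest in mouse 2 and 11 in mouse 4, where 33.5% and 35.2% of those protein-coding genes were. Apart from the number highest in mouse 1, these counts lie near the background. Over the whole set, the 4 genes that peaked in mouse 2 were Kars, Cars, Slc1a5 and Slc38a2. Synthetase genes were higher in mouse 1 than in mouse 2 in 18 of 20 cases and higher than in mouse 4 in 19 of 20, where 56.7% and 63.5% of 4853 protein-coding genes of 10 to 1000 TPM were. Mouse 3 exceeded mice 2 and 4 in 18 of 20 synthetase genes each, where 72.3% of those protein-coding genes were higher in mouse 3 than in mouse 4 and 35.8% were higher in mouse 2 than in mouse 3. Between mice 1 and 3, 10 of 20 synthetase genes were higher in mouse 1, beside 42.4% of the protein-coding genes. Of the 8 uptake genes, 3 were higher in mouse 3 than in mouse 4.

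As a median over genes, synthetases deviated from their own mean by 0.57, -0.50, 0.57 and -0.45 on the log2(TPM + 1) scale in mice 1 to 4, and the 4853 protein-coding genes by 0.12, -0.05, 0.27 and -0.17. With edgeR's TMM factors the synthetases gave 0.64, -0.50, 0.51 and -0.47, with DESeq2 size factors 0.61, -0.46, 0.47 and -0.44, and without the 10 highest genes in the denominator 0.52, -0.46, 0.46 and -0.32. Serine and glycine genes were set apart by mouse 1, at 1.47, -0.52, 0.24 and -0.66. Uptake genes showed smaller medians, at 0.35, -0.29, -0.14 and 0.02, and proline, glutamine, asparagine and aspartate genes had 0.82, -0.82, 0.53 and 0.21, above zero in mouse 4. The small uptake medians do not show more even expression. Some uptake genes lay below 1 TPM, where the added 1 keeps deviations small, and the median CV between mice was 49.8% for uptake genes and 49.0% for synthetases.

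**Figure D4:**
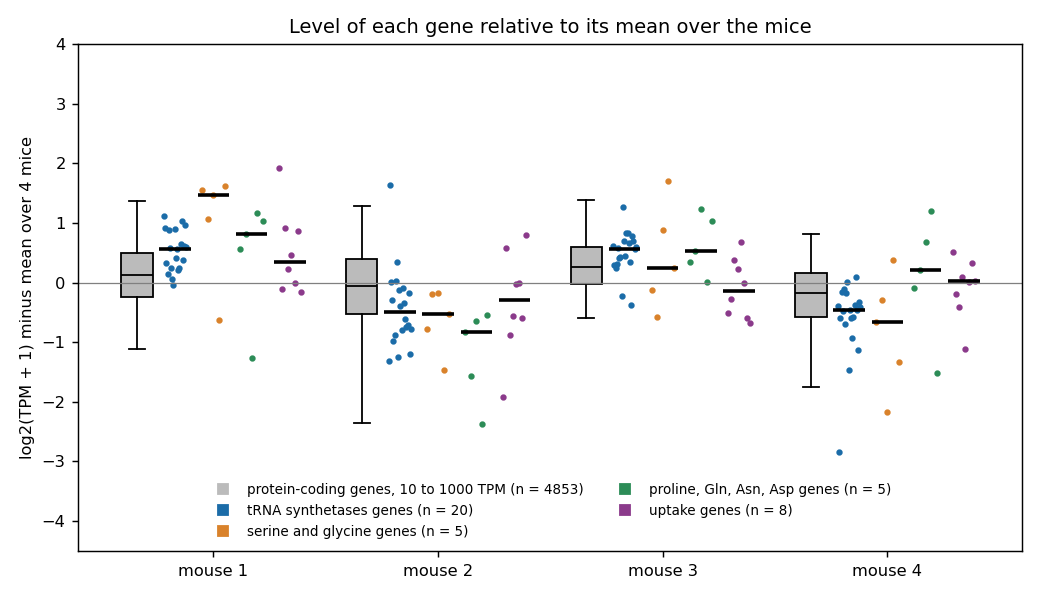
Difference of each gene's log2(TPM + 1) from its mean over 4 mice, by mouse, with 1 point per gene and a black bar at the median of each gene group. Grey boxes give the median and quartiles of 4853 protein-coding genes of 10 to 1000 TPM, with whiskers at their outer 5%, and synthetases (blue) lie mostly above zero in mice 1 and 3 and below it in mice 2 and 4.

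Several features of the libraries moved with this difference between mice. Mice 1 and 3 were the deeper libraries, with 43545349 and 42747050 counts against 26050230 and 22738604. Genes with at least 1 count numbered 18683, 16109, 18907 and 18802 in mice 1 to 4, fewest in mouse 2 although mouse 4 had the shallowest library. Erythroid markers summed to 4980.4, 35.0, 1708 and 358 TPM. The osteoblast markers summed to 108982, 133635, 77792 and 168024 TPM, lower in mice 1 and 3. Most of that sum was Bglap, with 96604, 119827, 55668 and 156730 TPM. Alpl (892, 550, 963 and 573 TPM) and Sp7 (339, 158, 255 and 151 TPM) were instead higher in mice 1 and 3 than in mice 2 and 4. Ibsp was highest in mouse 3, at 20907 TPM. Stromal niche markers (6 genes) summed to 1052, 4534, 2316 and 1194 TPM and adipocyte markers (4 genes) to 199, 962, 439 and 234 TPM, which set mouse 2 apart instead. Ly6a, which encodes Sca1, had 1, 120, 0 and 144 counts. Their part in the difference between mice was not tested. In libraries of 100 pooled cells, fewer cells that make an mRNA and less of that mRNA per cell cannot be told apart.

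Outside the highest levels, the spread of single genes was close to that of all protein-coding genes of the same level. The 27 members with a mean of 10 to 100 TPM had a median CV between mice of 49.0%, where the 4055 protein-coding genes of that range, members included, had 44.0% and counting error alone would give the members 2.01%. The 3 members of 100 to 1000 TPM, Gars, Pycr1 and Slc3a2, had a median CV of 54.0%, where the 828 protein-coding genes of that range had 24.7%. All 3 were highest in mouse 1 and lowest in mouse 2, where 32.1% and 37.3% of those protein-coding genes were, and 3 genes are few for such a count. Among the 6 members of 1 to 10 TPM, the CV was 80.2% against 84.7%, and 3 of the 6 had no counts in mouse 2, as did 23.2% of the protein-coding genes of that range.

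The summed level of the synthetases did not track that of collagen mRNA over the 4 mice. Synthetases summed to 1100.0, 539.7, 1036 and 499 TPM, highest in mice 1 and 3, while collagen genes were highest in mice 1 and 4 and lowest in mouse 3. For each 1000 TPM of collagen mRNA there were 24.0, 14.1, 31.6 and 11.6 TPM of synthetase mRNA. Serine and glycine genes summed to 396, 101, 148 and 85.0 TPM, and proline, glutamine, asparagine and aspartate genes to 361, 101, 334 and 206 TPM. Uptake genes summed to 324, 193, 223 and 173 TPM and had the narrowest range for each 1000 TPM of collagen mRNA, from 4.02 to 7.06 TPM. For single genes, Pycr1 ranged from 0.82 to 4.16 TPM, Gars from 2.12 to 7.43 TPM and Eprs from 0.45 to 0.82 TPM for each 1000 TPM of collagen mRNA. With 4 mice no correlation was computed.

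**Figure D5:**
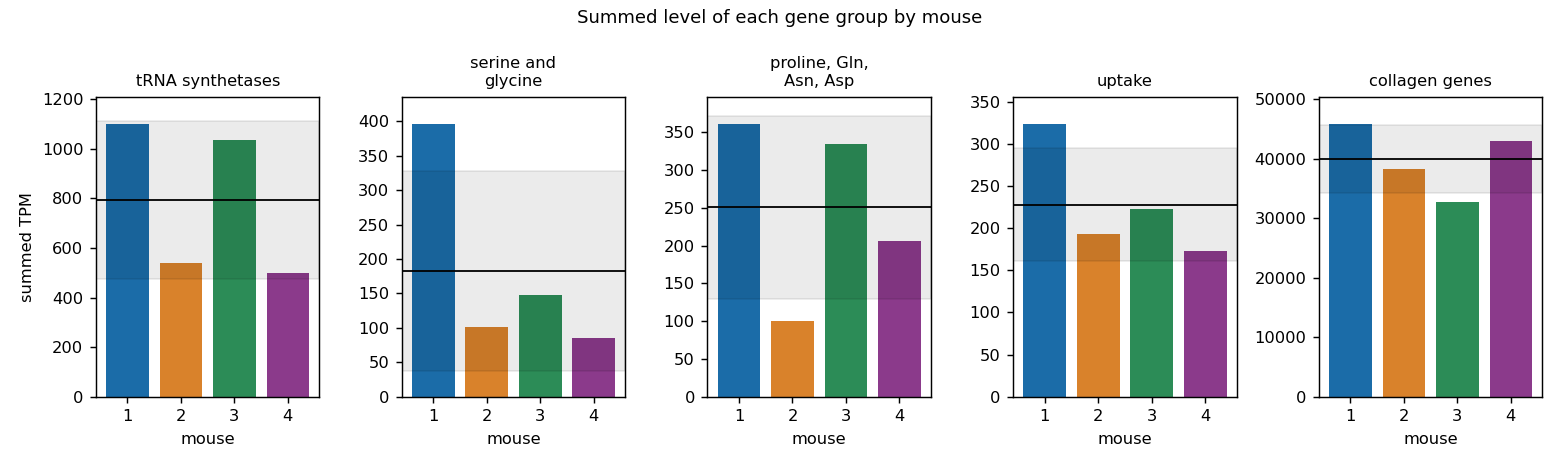
Summed TPM of each gene group and of the 44 collagen genes in each of 4 mice (bars), with the mean (line) and 1 SD to either side (shaded), each panel on its own axis from 0. Synthetase sums are near 1100.0 and 1036 TPM in mice 1 and 3 and near 540 and 499 TPM in mice 2 and 4, while collagen sums stay between 32735 and 45826 TPM.

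Counting without strand touches a few of these genes. Hars shares 7.97% of its exon bases with Hars2 on the opposite strand, Mars1 1.99% with Ddit3, Psph 10.4% with Cct6a and Shmt1 4.74% with Smcr8, and reads from such stretches cannot be told apart. Farsb shares 9.47% of its exon bases with Sgpp2 on the opposite strand, which had no counts. A near-identical copy covers 49.9% of the Iars transcript, in the pseudogene Gm4849. Exosc6, also without counts, is annotated on the same strand over 1326 bases of Aars, which make up 23.1% of its transcript. The study's stated counting options name none that would assign a read pair to each of several overlapping genes. The absence of counts in Sgpp2 and Exosc6 therefore does not show that these overlaps are without effect on Farsb and Aars.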

How the data were processed

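RNA-seq libraries of 100 sorted MSCs from each of 4 mice were used. The authors deposited raw counts per Ensembl gene, with no normalization. According to the study's methods and the submitters' processing notes, base calls were converted with bcl2fastq 2.20.0, read pairs were aligned to GRCm39 with STAR 2.7.10 and uniquely mapped pairs were counted on exons with featureCounts (Subread 1.6.5), with no strand option stated. No molecular identifiers are described, so limits from counts cover counting error only.

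TPM was computed in Python 3.11.15 (numpy 2.4.6, pandas 2.3.3) from these counts and the merged exon lengths of GENCODE M21 (GRCm38), joined by Ensembl identifier. This covered 52125 genes and between 96.1% and 98.2% of counts, and 4855 genes without a length were left out. Where exons differ between the builds, the TPM is scaled wrongly by that difference in length. The 3 counts taken as the detection limit correspond to between 0.0689 and 0.132 in a library scaled to 1000000. Residue shares used the translated longest coding sequence of 21821 genes, in place of the planned RefSeq proteins. Of these, 25 have a stop inside the sequence and were kept. Copies of each member were found among annotated transcripts by BLAST 2.17.0 (at least 95% identity over 100 bases).

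All libraries form one group. The 6 comparisons within mice used log2(TPM + 1), a two-sided sign-flip test over mice (exact permutation) and Benjamini-Hochberg adjustment. Alternatives were other lengths, denominators, pseudocounts and cutoffs, TMM factors (edgeR 4.0.16, R 4.3.3), DESeq2 1.42.0 size factors and leaving out each mouse. The code was tested on simulated data. The named genes are all members found in the table, the 2 highest genes of each further list and its genes with under 3 counts in every library, and any other gene only where a result turns on it. One gene that this rule names is not reported here. Members, lists and comparisons were chosen with earlier results of these data known, and the length of the coding transcript was added as an alternative after the values were seen. Pycr3 was not analysed here, nor was Ddit3 as a gene of the response list.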

Additional observations from a re-analysis of the deposited data

Results flagged for a closer look

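Among 43 values tested, the 38 gene levels and sums over gene groups, 4 had 1 mouse that stood far from the other 3 by Dixon's test for outliers, where chance alone would give about 2.15. Phgdh had 153 TPM in mouse 1 and between 29.5 and 46.8 TPM in the other mice. Psat1, the next enzyme of the same pathway, had 86.3 TPM in mouse 1 and between 26.8 and 35.4 TPM in the others. Slc1a5 had 49.7 TPM in mouse 2 and between 27.1 and 30.7 TPM elsewhere. Slc7a11 had 0.0348 TPM in mouse 4 and between 0.0194 and 0.0208 TPM in the others, but rests on 3 to 5 counts in each mouse.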

How the results depend on the processing

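Of 158 alternatives over all results, 143 were taken as unchanged, 12 moved the value further and 3 reversed it. Unchanged means within 1 SD between mice or, for the 6 comparisons, the same direction. For the count of genes past the cutoff it means a change by less than a fixed factor. Eprs against the median synthetase gene turned from -0.26 to 0.70 with the longest transcript as length, 1.54 with no length and 0.72 with the coding transcript. The other 5 comparisons kept their direction under each of their 13 alternatives, though with 4 mice none could pass a threshold of 0.05. Much of this was fixed in advance. Scalings, denominators and pseudocounts act on both genes of a mouse alike and could not reverse the sign in any mouse. Nor could leaving out 1 mouse where 4 of 4 mice agreed. These alternatives count among the unchanged ones above. With no length (CPM), sums were 1521 for synthetases, 378 for proline, glutamine, asparagine and aspartate genes and 457 for uptake genes, and collagen genes supplied 72.4% of glycine and 64.9% of proline. Leaving the 10 highest genes out gave sums of 1232, 389 and 358 TPM, and collagen shares of 6.41% and 5.17%, since Col1a1 and Col1a2 are then gone. The Spearman correlation of synthetase level and residue share was 0.40 with no length and 0.19 when all levels used the coding transcript. Between 30 and 37 genes passed under other cutoffs, lengths and scalings, and Slc38a1 passed only with no length. Leaving out 1 mouse gave 35 to 36 genes, with Shmt1 lost without mouse 3 or mouse 4, and sums of 692 to 892 TPM for synthetases. The serine and glycine sum fell from 183 to 111 TPM without mouse 1 and reached 215 TPM without mouse 4. No paired analysis was possible because all libraries form one group and no second group shares their numbers, and the 6 comparisons are differences between genes within each mouse. Levels of a few TPM rest on few starting molecules, since 100 cells were amplified by PCR, and lengths come from another build than the counts.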
